A study of Homo sapiens with 12 samples.

Results

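DMBT1 and PIGR are genes of mucosal defence, and they were chosen by name for the levels of DMBT1 in ascites-treated ovarian cancer cells and for the known function of PIGR. The deposited tables list 19251 genes by Ensembl identifier, and 1 of the 2 chosen genes, DMBT1 (ENSG00000187908), has values in them. PIGR (ENSG00000162896) is not analysed here. The levels of DMBT1 in both cell lines, with and without ascites, were what chose it, so its values are given as a description with no test.

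RNA sequencing was performed on 12 libraries from 2 human ovarian cancer cell lines, with 3 libraries in each of 4 groups. CAOV3 is labelled as an epithelial high grade serous line and TOV21G as an epithelial clear cell line, and every library carries the genotype label WT. The CAOV3 ascites and TOV21G ascites groups were exposed for 16 hours to ascites, peritoneal fluid of ovarian cancer, at 10% of the medium (150 µL added to 1.5 mL). The CAOV3 control and TOV21G control groups were untreated, and the labels describe no vehicle added to their wells. All 4 groups were grown in DMEM with 10% fetal bovine serum and antibiotics, and 250000 cells were seeded per well. The labels do not say how many patients the ascites came from, whether cells had been removed from it, or whether the 3 libraries of a group came from separate cultures, so the p-values below measure only the spread between these libraries, which may be technical.

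DMBT1, deleted in malignant brain tumours 1, encodes a large secreted glycoprotein built mainly of repeated scavenger receptor cysteine-rich (SRCR) domains, followed by CUB and zona pellucida domains. It is also known as salivary agglutinin. Epithelia of the airway, gut and salivary glands release it onto their surfaces, where it binds bacteria and viruses and interacts with surfactant protein D, galectin-3 and trefoil factors. Its gene is known to respond in epithelial cells to microbial sensors and to cytokines that act through NF-kB and STAT3. PIGR, the polymeric immunoglobulin receptor, carries IgA across the same epithelia and remains bound to it as secretory component.

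Both lines were epithelial by their markers. The summed level of 10 epithelial marker genes, in normalised counts (read counts divided by a size factor per library, explained below), was between 153299 and 154140 in the CAOV3 control libraries and between 23359 and 24700 in the TOV21G control libraries. PAX8 and WT1, transcription factors used as markers of serous tumours, were at 19.1 ± 1.17 and 4.59 ± 2.11 (SD, n = 3) in CAOV3 controls, and at 7032 ± 259 and 228 ± 7.85 (SD, n = 3) in TOV21G controls. These libraries thus held little RNA of 2 serous markers in the line labelled as serous. The reads assigned to genes numbered between 26697609 and 34491304 per library.

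DMBT1 lies on chromosome 10 at 122560665 to 122643736 on the plus strand (GRCh38, GENCODE release 29). It spans 83072 bases, with up to 56 exons in a transcript, and no other annotated gene overlaps it. Its promoter, as listed by RefSeq on GRCh38.p14, is shown because it is the start region of the gene that the levels below describe. The window chr10:122560504-122560803, plus strand, holds 250 bases before and 50 bases after the RefSeq start site, and that site lies 89 bases after the GENCODE gene start. Capitals mark matches, on either strand, to TATAAA (the TATA box), TTGCNNAA (C/EBP) and GGGNNNNNCC (NF-kB).
DMBT1 promoter: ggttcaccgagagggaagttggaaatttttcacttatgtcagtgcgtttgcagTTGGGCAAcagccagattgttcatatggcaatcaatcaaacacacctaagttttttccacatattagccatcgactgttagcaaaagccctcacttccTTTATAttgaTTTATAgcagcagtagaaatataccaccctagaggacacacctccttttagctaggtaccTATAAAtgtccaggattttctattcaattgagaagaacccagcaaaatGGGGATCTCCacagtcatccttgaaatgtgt

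The window held 3 TATAAA matches, which began 99 and 89 bases (minus strand) and 29 bases (plus strand) before the start site, and 11.5% of 35116 RefSeq promoters of the same length held at least 1. TTGCNNAA matched once, on the minus strand, 197 bases before the start, and 10.5% of promoters held it. GGGNNNNNCC matched once, 19 bases after the start, and 58.7% of promoters held it. The STAT letters TTCNNNGAA had 0 matches, and 7.66% of promoters held them. A match is a run of letters and not a measured binding site, and 0 matches says only that these letters are not in this window. GGAAG (ETS) matched 2 times, and CANNTG (E-box) 3 times with 1 match overlapping the C/EBP match. TTTAT (CDX) matched 3 times, each inside a TATAAA match. These 3 motifs stood in 71.9%, 68.7% and 34.9% of promoters. The window was 40.7% G and C, below the median of 58.7% over all promoters.

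In CAOV3 cells, DMBT1 was near 0 without ascites and higher in every library with it. The 3 CAOV3 control libraries held 4, 2 and 5 DMBT1 reads, which correspond to 4.54, 2.15 and 4.95 normalised counts. The 3 CAOV3 ascites libraries held 210, 171 and 266 reads, or 229.7, 174.8 and 272.1 normalised counts. Every ascites library lay above every control library, as for 11.4% of the 17616 genes tested. The group means were 3.88 ± 1.51 and 226 ± 48.8 normalised counts (SD, n = 3 each), a 58.1-fold ratio of means. The ratio from the summed reads, 647 with ascites and 11 without, was 57.8, with an exact 95% interval of 32.1 to 116 that covers counting error only. On the log2(value + 1) scale the difference was 5.57 with a standard error of 0.30, the highest of the 17616 genes tested, beside a median of -0.00207 over all of them. A gene entered the test if 3 or more libraries reached a value of 10, and DMBT1 passed this filter through its CAOV3 ascites and TOV21G libraries.

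TOV21G cells carried DMBT1 reads without ascites, and their level was not higher with it. The 3 TOV21G control libraries held 42, 23 and 52 reads, or 45.5, 24.1 and 46.7 normalised counts. The 3 TOV21G ascites libraries held 31, 31 and 35 reads, or 25.7, 27.4 and 31.3 normalised counts. The groups overlapped, since control replicate 2 was below all 3 ascites libraries, and 11.1% of tested genes had groups that did not overlap in TOV21G. The group means were 38.8 ± 12.7 and 28.1 ± 2.89 normalised counts (SD, n = 3 each), a ratio of 0.726, and the ratio from 117 control and 97 ascites reads was 0.718 with a counting interval of 0.543 to 0.947. On the log2(value + 1) scale the difference was -0.39 with a standard error of 0.30, which put DMBT1 at rank 696 from the lowest of the 17616 genes. The difference changed from -0.70 without TOV21G control replicate 2 to -0.23 without TOV21G control replicate 3.

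**Figure D1:**
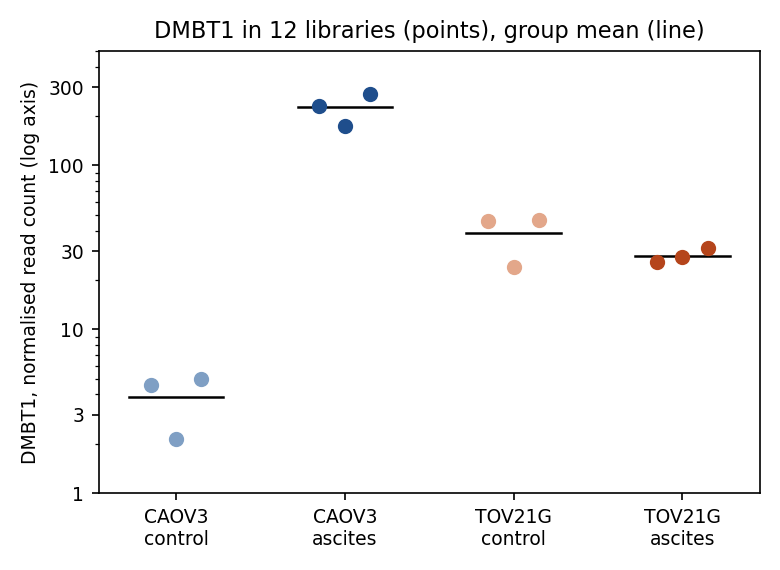
DMBT1 level by library. The vertical axis gives normalised counts on a log scale, each point is 1 of 12 libraries, each horizontal line is a group mean, and the groups are CAOV3 and TOV21G with and without ascites. The CAOV3 controls lie between 2.15 and 4.95 and the CAOV3 ascites libraries between 174.8 and 272.1, while the 6 TOV21G libraries lie between 24.1 and 46.7.

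The 4 groups ordered from CAOV3 control, through TOV21G ascites and TOV21G control, to CAOV3 ascites. TOV21G ascites and TOV21G control, which stood next to each other in this order, overlapped, and no other pair of neighbours did. The other pairs of neighbours set 1 line against the other, and the share of all genes without overlap was not computed for them. Between untreated lines, 40.9% of tested genes were higher in TOV21G with no overlap. Untreated TOV21G held 9.99 times the DMBT1 mean of untreated CAOV3, with a ratio from reads of 10.0 and a counting interval of 5.41 to 20.7. This difference between the lines was 3.02 (standard error 0.30) on the log2(value + 1) scale, rank 1298 from the highest of 17616 genes. The difference in response, TOV21G minus CAOV3, was -5.96 (standard error 0.42) on the same scale, the lowest of all 17616 genes. These values used the same libraries as the choice of DMBT1.

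DMBT1 was a low-abundance transcript in all 4 groups, the CAOV3 ascites group included. Per kilobase of exon (8.073 kb in total), its mean normalised count was 0.481 in CAOV3 control, 27.9 in CAOV3 ascites, 4.80 in TOV21G control and 3.49 in TOV21G ascites. Of 19223 genes with an annotated length, 5.35% lay below DMBT1 in CAOV3 control and 37.9% in CAOV3 ascites. The shares were 17.7% in TOV21G control and 14.2% in TOV21G ascites. Most genes were therefore higher per kilobase than DMBT1 in each group.

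The depth set how well each level was known. A library with 2 reads, CAOV3 control replicate 2, allows a true count between 0.242 and 7.22 reads (exact 95% Poisson interval), and one with 5 reads, CAOV3 control replicate 3, allows 1.62 to 11.7. The CAOV3 ascites library with 171 reads allows 146 to 199 reads. The spread between CAOV3 control libraries, an SD of 1.51 normalised counts, was no larger than the 2.03 that counting alone gives. In CAOV3 ascites the SD of 48.8 exceeded the counting SD of 15.4, and in TOV21G control the SD of 12.7 exceeded 6.26. The TOV21G ascites SD of 2.89 was below its counting SD of 4.95. Reads without molecular identifiers are not independent molecules, so these intervals cover counting error only. In bulk RNA, fewer cells expressing a gene and less of its RNA per cell cannot be told apart.

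The repeats of the protein also show in the transcript. The longest DMBT1 transcript, of 8073 bases, holds 8024 windows of 50 bases, and 36.2% of them occur more than once within it, up to 9 times. With windows of 100 bases the share was 25.1%, with up to 7 copies. At both lengths 0 windows occurred in a transcript of any other annotated gene. The read length and the treatment of reads with several alignments are not given in the sources used here, so how many reads from the repeats were counted is unknown. DMBT1L1, an annotated pseudogene that begins 85693 bases after DMBT1, is not analysed here.

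No listed neighbour of DMBT1 passed the test in either line. Of 12 annotated genes within 250 kb, 3 were listed: HTRA1, PLEKHA1 and BTBD16, all before DMBT1. HTRA1, a secreted serine protease that ends 45757 bases before DMBT1, was at 333, 331 and 368 normalised counts in CAOV3 control and 414, 344 and 408 in CAOV3 ascites, a log2 difference of 0.17 (limma adjusted p = 0.75). In TOV21G its difference was -0.29 (limma adjusted p = 0.633). PLEKHA1, a phosphoinositide-binding adaptor, differed by 0.01 in CAOV3 and 0.09 in TOV21G (limma adjusted p = 0.956 and 0.452), and BTBD16 by 0.15 and -0.19 (limma adjusted p = 0.957 and 0.939). At an adjusted p under 0.05 the test called 1.73% of all tested genes in CAOV3 and 0.409% in TOV21G.

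Other genes of mucosal defence were grouped in 7 lists of 150 genes, of which 94 were listed and 93 tested. In CAOV3, 11 were called, 10 higher with ascites and 1 lower, and DMBT1 was one of the 10. CFI, described below, reached a value of 10 only in the CAOV3 ascites libraries and so entered the test through the group where it was high. Without DMBT1 and CFI, 9 of 91 were called, 8 of them higher, beside 1.73% of all genes (0.636% higher and 1.1% lower). In TOV21G, 4 were called, 3 higher and 1 lower, beside 0.409% of all genes (0.142% higher and 0.267% lower). The response differed between the lines for 8 of the 93, or 6 of 91 without DMBT1 and CFI, beside 0.545% of all genes (0.238% higher and 0.307% lower in TOV21G than in CAOV3). Untreated, the lines differed in 86 of the 93, beside 82.2% of all genes. The TOV21G count was 2 without TOV21G control replicate 1, TOV21G control replicate 3 or TOV21G ascites replicate 1. The count for the difference in response was 4 without CAOV3 ascites replicate 1 or TOV21G control replicate 3, and 5 without CAOV3 control replicate 1 or 2, CAOV3 ascites replicate 3 or TOV21G ascites replicate 3. The median log2 difference over the 93 genes was -0.01 in CAOV3 and 0 in TOV21G, beside medians of -0.00207 and -0.02 over all tested genes. At an unadjusted p under 0.05, used below beside counts of 0, limma passed 12.9% of all genes in CAOV3 and 9.17% in TOV21G.

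**Figure D2:**
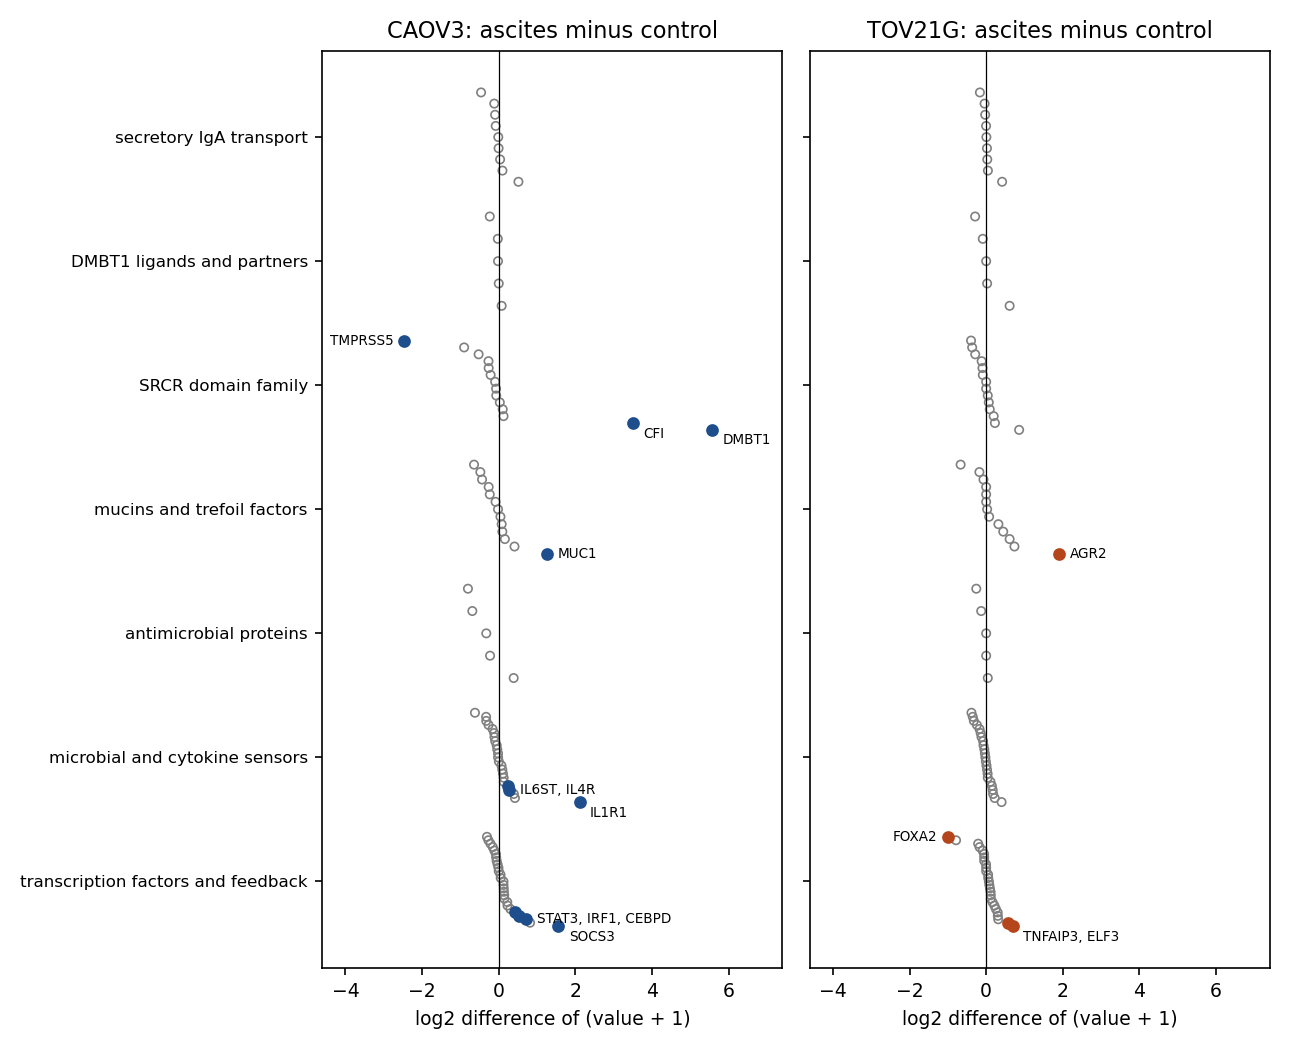
Differences of the mucosal defence genes. Each point is 1 tested gene of the list named on the vertical axis, the horizontal axis gives ascites minus control on the log2(value + 1) scale in CAOV3 (left) and TOV21G (right), and filled points passed a limma adjusted p of 0.05. DMBT1, which was chosen for this difference, lies at 5.57 in CAOV3, and most other genes lie near 0 in both lines.

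The transport of IgA, the process PIGR serves, held no called gene. Of 15 genes of secretory IgA transport 9 were tested, and 0 passed in either line by limma, edgeR or DESeq2. At an unadjusted p under 0.05, 2 of the 9 passed in CAOV3 and 0 in TOV21G, beside 12.9% and 9.17% of all genes. MAL2, a membrane protein of the route that carries IgA across the cell, had the highest level of the list per kilobase and stood at 3708 ± 135 in CAOV3 control and 3508 ± 84.4 in CAOV3 ascites (SD, n = 3 each), with limma adjusted p = 0.476. The TOV21G means of MAL2 were 3380 ± 149 and 3375 ± 102 (SD, n = 3 each).

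The known ligands and partners of the DMBT1 protein also held no called gene. Of 8 genes 5 were tested, and 0 passed in either line by limma, edgeR or DESeq2, with 0 in CAOV3 and 1 in TOV21G at an unadjusted p under 0.05 (12.9% and 9.17% of all genes). LGALS3, which encodes galectin-3, was the highest of them per kilobase, at 2100 ± 64.8 and 2064 ± 23.4 in CAOV3 and 2569 ± 301 and 2408 ± 136 in TOV21G (SD, n = 3 each). Which other partners were present differed by line. TFF2 and TFF3, trefoil peptides of mucus, stood at 323 ± 26.4 and 501 ± 103 in CAOV3 control (SD, n = 3 each) and had 0 reads in TOV21G control. SFTPD, surfactant protein D, had 0 reads in all 6 CAOV3 libraries and stood at 17.0 ± 6.58 in TOV21G control and 13.1 ± 2.62 in TOV21G ascites (SD, n = 3 each).

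Of 25 genes of the SRCR domain family, DMBT1 included, 14 were tested. Leaving DMBT1 and CFI aside, limma called 0 of 12 higher and 1 lower in CAOV3 ascites, beside 0.636% and 1.1% of all genes. An unadjusted p under 0.05 was met by 4 of the 14, with DMBT1 and CFI among the 4. Since those genes were chosen or tested for their CAOV3 ascites values, this count cannot be set against the 12.9% of all genes. CFI, complement factor I, a protease that cleaves activated complement, was at 4.54, 1.08 and 0 normalised counts in CAOV3 control and 24.1, 26.6 and 23.5 in CAOV3 ascites. The ascites libraries all lay above the controls, with a log2 difference of 3.51 (standard error 0.47), and the control values rest on at most 4 reads. CFI had 0 reads in all 6 TOV21G libraries. Since CFI was tested only because of its CAOV3 ascites values, its difference is a description with no test. TMPRSS5, a membrane serine protease, went the other way, from 18.2, 19.4 and 15.8 to 2.19, 1.02 and 5.12, with no overlap and a log2 difference of -2.46 (standard error 0.40, limma adjusted p = 0.00557). TMPRSS5 was at 5.42, 13.6 and 6.28 in TOV21G control and 12.4, 15.9 and 17.0 in TOV21G ascites, which overlap. LGALS3BP, the most abundant SRCR gene per kilobase, was at 7183 ± 193 and 7835 ± 221 in CAOV3 (SD, n = 3 each), which did not pass (limma adjusted p = 0.395). No SRCR gene was called in TOV21G by limma, edgeR or DESeq2, and 1 of 14 had an unadjusted p under 0.05, beside 9.17% of all genes. The median difference of the 14 genes was -0.08 in CAOV3 and 0 in TOV21G.

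Of 21 mucins, trefoil factors and related genes, 13 were tested. Limma called 1 in each line, beside 1.73% of all genes in CAOV3 and 0.409% in TOV21G. With edgeR and DESeq2 the calls numbered 3 each in CAOV3 and 0 each in TOV21G. MUC1, a membrane mucin of epithelial surfaces, was at 46.5, 48.4 and 55.4 in CAOV3 control and 128, 109 and 129 in CAOV3 ascites, with a log2 difference of 1.27 (standard error 0.11, limma adjusted p = 6.06e-05). In TOV21G it was at 372, 428 and 406 and at 465, 402 and 405, which overlap. Like DMBT1, MUC1 was lower in untreated CAOV3 than in untreated TOV21G. Unlike DMBT1, it did not exceed the TOV21G level in CAOV3 ascites. AGR2, a protein disulfide isomerase needed for mucin folding, was called in TOV21G, where 0 reads in each control faced 7, 2 and 2 reads in ascites. Its log2(value + 1) difference of 1.90 (limma adjusted p = 0.0052) did not pass with edgeR or DESeq2 on the recovered reads (adjusted p = 0.0569 and 0.0799). In CAOV3, where AGR2 had the highest level of the list per kilobase, it was at 13677 ± 386 and 11398 ± 338 (SD, n = 3 each), a log2 difference of -0.26 that limma did not call (adjusted p = 0.732) and that edgeR and DESeq2 did (adjusted p = 0.00698 and 1.27e-06). MUC1 and 1 other annotated gene overlap on the same strand, so reads of the pair may be divided between them.

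Of 32 antimicrobial proteins 5 were tested, and 0 passed by limma in either line. At an unadjusted p under 0.05, 2 passed in CAOV3 and 0 in TOV21G, beside 12.9% and 9.17% of all genes, and edgeR called 1 in CAOV3 and DESeq2 0. DEFB1, a defensin made constitutively by epithelia, was the highest of them per kilobase by its mean over the 12 libraries, though not in CAOV3 control, and stood at 9.66 ± 2.50 in CAOV3 control and 13.5 ± 6.16 in CAOV3 ascites (SD, n = 3 each).

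The next list held microbial sensors and cytokine receptors. Whether its members act on DMBT1 in these cells was not tested. Of 26 genes 23 were tested. Limma called 3 higher in CAOV3 ascites, beside 0.636% of all genes, and edgeR and DESeq2 called 3 each. In TOV21G 0 were called by limma, edgeR or DESeq2, and 2 had an unadjusted p under 0.05, beside 9.17% of all genes. IL6ST, the signalling receptor shared by the interleukin-6 family, went from 3109 ± 141 to 3702 ± 99.6 in CAOV3 (SD, n = 3 each), a log2 difference of 0.25 (limma adjusted p = 0.0056). IL4R, the interleukin-4 receptor, differed by 0.27 (limma adjusted p = 0.0164). IL1R1, the receptor of interleukin-1, was at 2.27, 0 and 3.96 and at 7.66, 11.2 and 11.3 in CAOV3, with limma adjusted p = 0.0351. The IL4R call was lost, with adjusted p up to 0.0795, without CAOV3 control replicate 1 or 3 or CAOV3 ascites replicate 2 or 3. The IL1R1 call was lost, with adjusted p up to 0.125, without CAOV3 control replicate 1, any 1 of the 3 CAOV3 ascites replicates, TOV21G control replicate 3 or TOV21G ascites replicate 1, and it did not pass with edgeR (adjusted p = 0.0563). TNFRSF1A, the main receptor of tumour necrosis factor, was the most abundant of the list per kilobase and did not pass in either line (limma adjusted p = 0.565 and 0.82).

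Transcription factors and feedback genes of the same routes held the largest number of calls. All 27 were tested. Limma called 4 higher in CAOV3 ascites, beside 0.636% of all genes. In TOV21G ascites it called 2 higher and 1 lower, beside 0.142% and 0.267% of all genes. With edgeR and DESeq2 the calls numbered 8 each in CAOV3 and 6 each in TOV21G. Of all 17616 tested genes these tools called 511 and 507 in CAOV3, and 114 and 150 in TOV21G. SOCS3, a feedback inhibitor whose transcription STAT3 activates, was at 159, 154 and 140 in CAOV3 control and 416, 456 and 461 in CAOV3 ascites, a log2 difference of 1.55 (standard error 0.10, limma adjusted p = 3.78e-06). In TOV21G, SOCS3 was at 285, 237 and 260 and at 229, 260 and 206, which overlap. Its order of group means was that of DMBT1, from CAOV3 control (151 ± 10.0) through TOV21G ascites (232 ± 27.3) and TOV21G control (261 ± 24.1) to CAOV3 ascites (444 ± 25.0; SD, n = 3 each). JAK3, described below, had this order too, and the share of all genes with it was not computed. SOCS3 is also among the 5 genes nearest to DMBT1 in profile, listed below. Whether STAT3 or SOCS3 acts on DMBT1 in these cells was not tested.

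STAT3 itself was at 1809, 1757 and 1852 in CAOV3 control and 2377, 2389 and 2525 in CAOV3 ascites, with no overlap and a log2 difference of 0.43 (standard error 0.04, limma adjusted p = 0.000175). Its level in TOV21G was higher than in CAOV3 in every library, at 7532 ± 350 in control and 7913 ± 227 in ascites (SD, n = 3 each). CEBPD, a C/EBP transcription factor, went from 99.4 ± 9.50 to 163 ± 6.58 in CAOV3 (SD, n = 3 each; log2 difference 0.71, limma adjusted p = 0.00063), and IRF1, an interferon-responsive factor, from 540 ± 37.5 to 780 ± 21.6 (SD, n = 3 each; log2 difference 0.53, limma adjusted p = 0.000859). IRF1 overlaps 2 genes on the opposite strand, and the strandedness of the libraries is not given in the sources used here. Of the 28 genes named for these comparisons, 14 overlap another annotated gene, and DMBT1 is not one of them. In TOV21G, CEBPD and IRF1 differed by 0.12 and 0.17 (limma adjusted p = 0.672 and 0.47).

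The TOV21G calls fell on other members. ELF3, an epithelial ETS factor, was at 179, 163 and 180 in TOV21G control and 275, 318 and 255 in TOV21G ascites, with no overlap and a log2 difference of 0.69 (standard error 0.08, limma adjusted p = 0.00115). TNFAIP3, which limits NF-kB signalling, went from 1063 ± 32.6 to 1586 ± 81.2 (SD, n = 3 each; log2 difference 0.58, limma adjusted p = 0.0261). Limma lost this call without any 1 of the 6 TOV21G libraries (adjusted p up to 0.116) and with a replicate block (0.176). The other 14 of 21 alternatives kept the TNFAIP3 call, edgeR and DESeq2 among them. FOXA2, an endodermal transcription factor, was at 17.3, 14.7 and 19.7 and at 9.11, 10.6 and 5.37, a log2 difference of -0.998 (limma adjusted p = 0.0351). It did not pass with edgeR or DESeq2 (adjusted p = 0.143 and 0.117), and limma lost the call without TOV21G control replicate 1 or 3, TOV21G ascites replicate 1 or any 1 of the 6 CAOV3 libraries, with adjusted p up to 0.143. NFKBIA, an NF-kB inhibitor, had the highest level of the list per kilobase in TOV21G and by the mean over the 12 libraries, though not in CAOV3. It differed by 0.21 in TOV21G (limma adjusted p = 0.157, edgeR 0.0101, DESeq2 0.0139) and by -0.03 in CAOV3 (limma adjusted p = 0.885). DMBT1, beside these, was at 28.1 ± 2.89 with ascites and 38.8 ± 12.7 without in TOV21G (SD, n = 3 each).

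The genes with profiles nearest to DMBT1 over the 12 libraries were HTR3A, FGA, SOCS3, JAK3 and SPAG5-AS1. Likeness was the root mean square difference of log2(value + 1) after each gene's own mean was removed, which gave 1.34, 1.41, 1.46, 1.49 and 1.53. The median over all tested genes was 2.07, and a gene with no variation at all would be at 2.001, so none of the 5 was close. These genes were chosen for likeness to DMBT1, and their values are a description. SOCS3 was also a list member, and its test above was made as such. HTR3A, a subunit of the serotonin receptor channel, was at 1.135, 0 and 0 in CAOV3 control and 15.3, 14.3 and 16.4 in CAOV3 ascites, and 5 of its 6 TOV21G libraries were at 0. FGA, the fibrinogen alpha chain, was at 34.0, 29.04 and 42.6 in CAOV3 control and 301, 246 and 354 in CAOV3 ascites, and its TOV21G libraries lay between 430 and 530. JAK3, a cytokine receptor kinase, was at 80.6, 123 and 107 in CAOV3 control and 325, 264 and 315 in CAOV3 ascites, and between 205 and 263 in TOV21G. SPAG5-AS1, an antisense RNA that overlaps 5 genes on the opposite strand, went from 7.94, 3.23 and 4.95 to 16.4, 12.3 and 20.5 in CAOV3 and was between 5.42 and 17.9 in TOV21G. FGA and JAK3, like DMBT1, were above the CAOV3 control level in every TOV21G library.

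**Figure D3:**
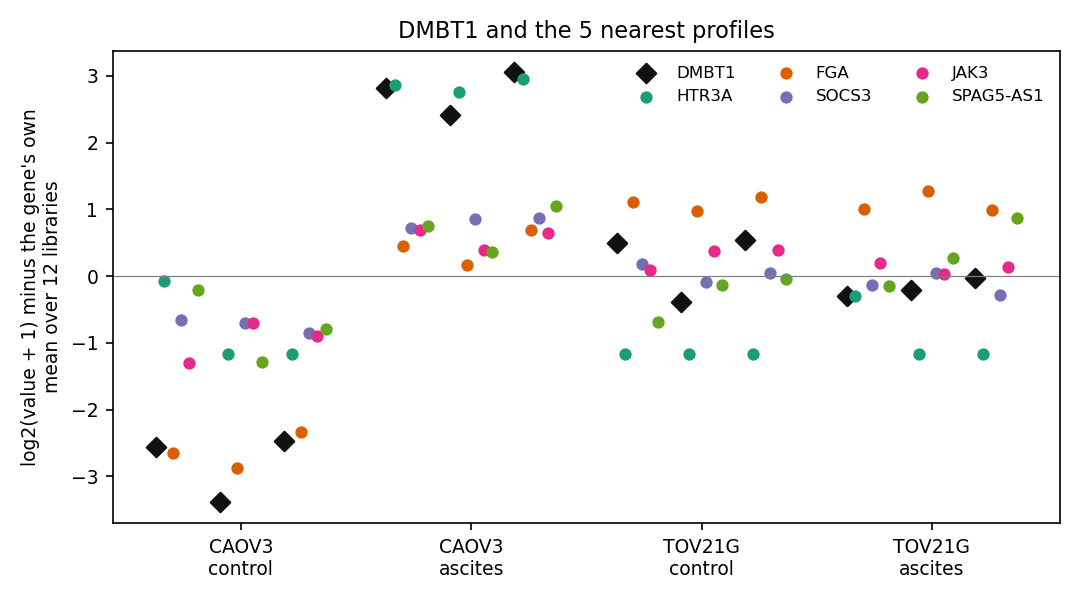
Profiles of DMBT1 and its 5 nearest genes. The vertical axis gives log2(value + 1) minus each gene's own mean over the 12 libraries, and each point is 1 library, grouped by line and treatment along the horizontal axis. DMBT1 and HTR3A reach the highest values in the CAOV3 ascites libraries, and DMBT1 lies near its own mean in TOV21G.

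Markers of other cells were read beside DMBT1, since ascites can carry cells. Of 12 leukocyte markers 3 were listed, CD79A, CD14 and LYZ, and the other 9 are not analysed here. Their summed level was between 194 and 214 in CAOV3 control and between 172 and 223 in CAOV3 ascites, which overlap. In TOV21G the sum was between 12.6 and 13.5 in control and between 15.2 and 22.1 in ascites, higher without overlap. Among single tested genes, 11.1% had groups that did not overlap in TOV21G. Of 10 antibody, red cell and platelet markers only IGKC was listed, with 0 reads in all 6 CAOV3 libraries, where DMBT1 was higher with ascites, and between 1.08 and 9.94 normalised counts in TOV21G. The summed level of 8 listed mesothelial and fibroblast markers of 9 was between 4279 and 4993 in CAOV3 control and between 3859 and 4074 in CAOV3 ascites. In TOV21G this sum was between 13134 and 13676 in control and between 11842 and 12333 in ascites. It was lower with ascites, without overlap, in both lines. The epithelial sum was between 177015 and 187571 in CAOV3 ascites, above the CAOV3 controls, and between 24650 and 25692 in TOV21G ascites, which overlaps the TOV21G controls. In CAOV3, 2 of 9 tested epithelial markers were called higher, KRT8 by 0.29 and KRT18 by 0.33 on the log2(value + 1) scale (limma adjusted p = 0.0231 and 0.0102). CDH1, the epithelial cadherin, lay lower in every CAOV3 ascites library, at 425 ± 33.1 and 272 ± 8.43 (SD, n = 3 each), a log2 difference of -0.64 that limma did not call (adjusted p = 0.438) and that edgeR and DESeq2 did (adjusted p = 0.00415 and 2.16e-05). Both of these tools called 4 epithelial markers in CAOV3. Of 7 tested mesothelial and fibroblast markers 1 was called lower, COL1A2, from 2.46 ± 0.442 to 0.365 ± 0.632 (SD, n = 3 each; limma adjusted p = 0.00461), which did not pass with edgeR or DESeq2 (adjusted p = 0.232 and 0.314). In TOV21G limma called 0 markers (1 at an unadjusted p under 0.05, an epithelial one), edgeR 1 and DESeq2 2, and none of the 3 leukocyte markers was called in either line by limma, edgeR or DESeq2. The part of these shifts in the DMBT1 values was not tested.

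Over 21 other ways of processing, 12 of which left out 1 library each, the DMBT1 difference in CAOV3 lay between 4.69 with a pseudocount of 5 and 5.85 with DESeq2 on recovered reads. In TOV21G it lay between -0.70 and -0.23, below 0 in each.

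**Figure D4:**
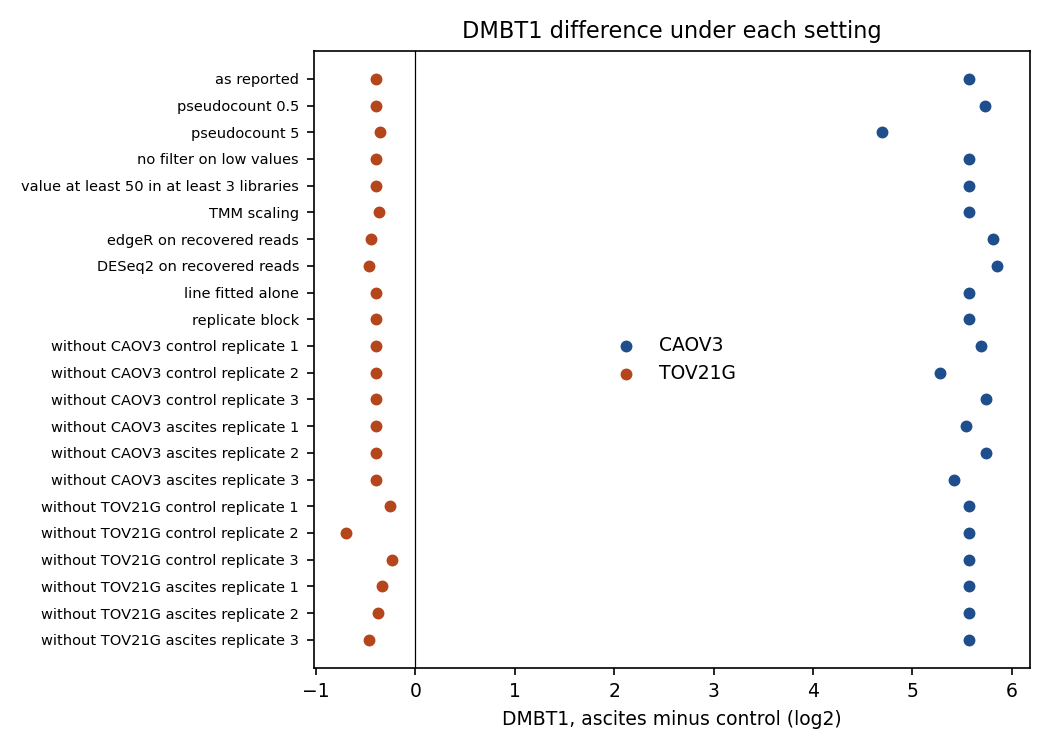
DMBT1 difference under each way of processing. Each row on the vertical axis is a setting or a library left out, and the horizontal axis gives ascites minus control (log2) in CAOV3 and TOV21G. The CAOV3 values lie between 4.69 and 5.85 and the TOV21G values between -0.70 and -0.23.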

How the data were processed

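The authors deposited 1 value per gene and library, a read count after normalisation, in the unit of a signal with no values below 0. Per the submitters' processing notes, Trim Galore, cutadapt, STAR, HTSeq and DESeq were used. Versions, genome build, annotation and strandedness are not given in the sources used here. All values were whole multiples of 1 step per library (largest deviation 5.33e-05 reads, tolerance 0.001), so whole reads were recovered. The steps matched the DESeq2 size factors of those reads. Of 19251 identifiers, 19087 were named from the supplied gene table and 136 from GENCODE release 29, and 28 stayed unnamed.

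The members and lists were chosen with earlier results of these data known. Genes with a value of at least 10 in at least 3 libraries (17616) were fitted with limma 3.58.1 in R 4.3.3 on log2(value + 1), with 1 mean per group over all 12 libraries, and Benjamini-Hochberg adjustment over all tested genes at 0.05. A fold on this scale understates the change of low genes. Named were DMBT1, called list members (up to 4 per list and comparison), the highest member of each list per kilobase (mean over 12 libraries), listed neighbours and the 5 nearest profiles. Alternatives were pseudocounts of 0.5 and 5, no filter, a filter at 50, TMM scaling, edgeR 4.0.16 and DESeq2 1.42.0 on recovered reads, each line alone, a replicate block and each library left out. Promoters came from RefSeq. Motif matches were counted on both strands.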

Additional observations from a re-analysis of the deposited data

Results flagged for a closer look

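For 10 genes named here the responses of the lines to ascites differed in the interaction term of the limma fit, given as TOV21G response minus CAOV3 response on the log2(value + 1) scale. Among list members the difference was -1.73 for SOCS3 (limma adjusted p = 8.37e-05), -1.19 for MUC1 (limma adjusted p = 0.00445) and -0.36 for STAT3 (limma adjusted p = 0.021). It was 3.32 for TMPRSS5 (limma adjusted p = 0.0199), 0.75 for ELF3 (limma adjusted p = 0.0093) and 2.17 for AGR2 (limma adjusted p = 0.0173), which had at most 7 reads in a TOV21G library. Leaving out 1 library ended the call for STAT3 in 7 of 12 fits (adjusted p up to 0.0764, without TOV21G ascites replicate 1), for TMPRSS5 in 6 (up to 0.0703, without TOV21G control replicate 3) and for AGR2 in 7 (up to 0.0644, without CAOV3 control replicate 3). No such fit ended the SOCS3, MUC1 or ELF3 call, and a replicate block ended that of MUC1 (adjusted p = 0.0827) and ELF3 (0.119) but not that of SOCS3 (0.013). The CFI difference of -3.51 is a description too, since CFI had 0 reads in TOV21G and entered the test only through its CAOV3 ascites libraries. The other 3 genes were chosen for their likeness to DMBT1, so their differences are a description: -3.06 for FGA, -3.37 for HTR3A and -1.71 for JAK3. SOCS3 was tested as a list member, but it is also among the genes nearest to DMBT1 in profile. No group was large enough for a check of single outlying libraries.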

How the results depend on the processing

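With a pseudocount of 5, the DMBT1 difference was 4.69 in CAOV3, -5.05 between the responses and 2.27 between untreated lines. Leaving out 1 library gave 5.28 to 5.74, -6.26 to -5.67 and 2.73 to 3.32, and -0.70 to -0.23 in TOV21G. DMBT1 kept its direction in every fit. Genes called in CAOV3 numbered 305, beside 511 with edgeR, 507 with DESeq2, 1295 with the line alone and 172 to 344 with 1 library left out (193 and 177 without CAOV3 control replicates 1 and 3, 194 and 172 without CAOV3 ascites replicates 1 and 2). TOV21G calls numbered 72, beside 114, 150, 22 and 24 to 136 (lowest without TOV21G control replicate 3, highest without TOV21G ascites replicate 2). Calls for the difference in response numbered 96, beside 148 with edgeR, 212 with DESeq2 and 40 to 146 (the same 2 libraries). Untreated lines gave 14480 calls, and 14020 to 14575 with 1 library left out. List members called in CAOV3 were 11, beside 19 with edgeR, 29 with the line alone and 9 to 13 with 1 library left out. In TOV21G they were 4, beside 2 with the line alone and 2 to 4 with 1 left out, and for the difference in response 8, beside 4 to 9. The cause was not tested. Of 1629 comparisons for 81 single-gene results, 1528 stayed on their side of the threshold, 79 lost and 22 gained a call, and 0 changed direction. Alternatives for PIGR were not run. The 2 to 5 DMBT1 reads per CAOV3 control library limit the CAOV3 ratio to its counting interval.

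Replicate numbers are shared between groups. Correlations of same-numbered libraries were -0.07, 0.06 and 0.01 in CAOV3 and -0.17, -0.42 and 0.07 in TOV21G. Those of differently numbered libraries lay between -0.11 and 0.097 in CAOV3 and between -0.34 and 0.46 in TOV21G. With 3 libraries per group, deviations from the group mean are not independent, so these values cannot decide whether the numbers pair the samples. The main fit used no pairing. With a replicate block, genes called numbered 116, 13 and 9, and called list members 8, 1 and 2, for CAOV3, TOV21G and the difference in response.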
